A study of Arabidopsis thaliana with 8 samples.

Results

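Genes of the Casparian strip were followed in Arabidopsis thaliana seedlings, across 4 groups of genotype and hormone treatment. They are the rows of the deposited read count table with the loci of CASP1, CASP2, CASP4, CASP5, MYB36, ESB1 and PER64. These are 7 of 33674 features, chosen by name but with earlier results of these data known. The groups were skip-1 seedlings with abscisic acid (ABA), skip-1 seedlings without it (mock), wild type seedlings with ABA and wild type seedlings without it, with 2 libraries each. All seedlings were 13 days old and of the Columbia-0 ecotype, were grown in long days, and received 100 or 0 µM ABA for 3 h. Skip-1 is a mutant of SKIP, a protein of the spliceosome with a further role in transcription, and was the only mutant line. The source was given as seedlings, and markers of both root and leaf were measured in every group. The labels do not say that replicates came from separate cultures, and p-values then measure only the spread between these libraries, which may be technical.

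The endodermis is the cell layer that encloses the vascular tissue of the root. Its differentiated cells carry the Casparian strip, a belt of lignin in the cell wall. This belt seals the space between cells against the free passage of water and ions. CASP proteins form a membrane scaffold that marks where the belt is built. ESB1, a dirigent protein, and PER64, a peroxidase, are brought to that scaffold and take part in depositing lignin. MYB36, a transcription factor of the MYB family, switches on CASP and other strip genes. At a later stage endodermal cells are coated with suberin, a waxy polymer, whose deposition ABA is known to promote.

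Libraries held 20870110 to 23640113 counted reads. The lowest correlation of log2 CPM within a group was 0.983 and the highest between groups 0.959, taken across genes, which are no independent replicates. Levels are given as CPM, counts scaled to a common library size after adjustment by trimmed mean of M values (TMM), or as FPKM, which also divides by gene length and is the scale for comparing genes. Changes are log2 fold changes ± an approximate standard error (SE) from edgeR's quasi-likelihood test, and a gene is said to have risen or fallen where its p adjusted by the Benjamini-Hochberg method over all 21008 tested features was under 0.05. In bulk seedlings, fewer endodermal cells and less RNA per cell cannot be told apart.

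All 7 members were detected, at levels that differed widely between them. On the FPKM scale CASP1 stood highest in every group, at 11.6 ± 0.856 FPKM in skip-1 with ABA, 20.0 ± 0.186 in skip-1 mock, 9.53 ± 0.793 in wild type with ABA and 23.4 ± 5.89 in wild type mock (SD, n = 2 each). In wild type mock PER64 (8.36 ± 0.515 FPKM) and CASP2 (8.07 ± 1.56) followed, and their libraries overlapped. CASP4 (4.13 ± 0.922 FPKM) came next. MYB36 (2.16 ± 0.883 FPKM) and CASP5 (1.59 ± 0.594) overlapped each other. ESB1 was last, at 0.134 ± 0.0724 FPKM. The length behind the FPKM was 609 bases for CASP4, which equals its coding length in RefSeq, whereas that of CASP1 was 855 bases against 621 coding bases. Of the 7 members, 6 passed the filter on low counts and were tested, and ESB1 did not pass.

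**Figure D1:**
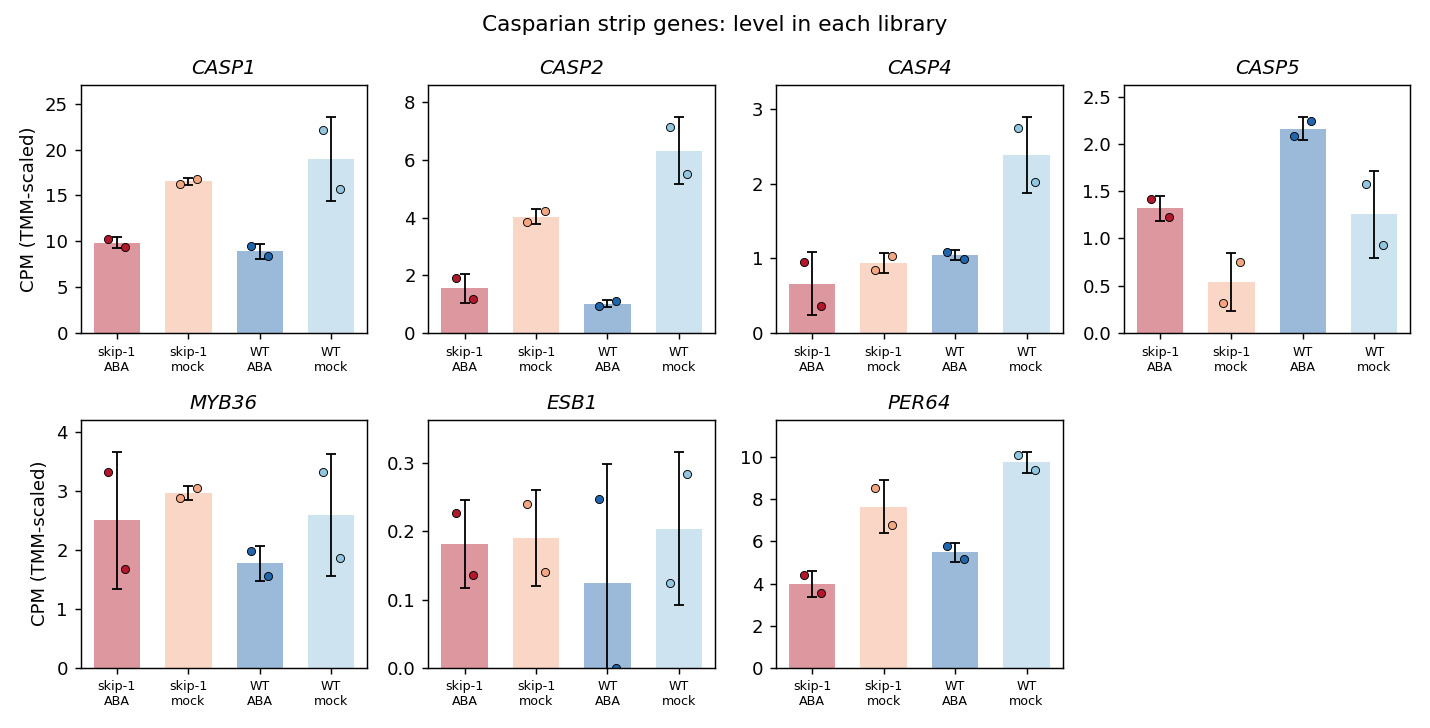
Level of each Casparian strip gene in CPM (linear axis from 0, TMM-scaled) in skip-1 with ABA, skip-1 mock, wild type (WT) with ABA and WT mock; points are libraries, bars the mean and whiskers the SD of 2 libraries. CASP1, CASP2 and PER64 lie lower with ABA than in mock of the same genotype, CASP5 lies higher with ABA, and ESB1 stays below 0.3 CPM.

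The 4 CASP genes described are paralogs on chromosomes 2, 3 and 5, and their coding sequences were compared because near-identical copies could share reads. CASP2 and CASP4 were the closest pair, with 80.6% identity over 609 aligned bases, and the other pairs lay between 57.3% (CASP2 and CASP5) and 67.0% (CASP1 and CASP2). No identical run in any pair was longer than the 20 bases shared by CASP2 and CASP4. The 90-base stretch around that run, the most alike part by this measure, is shown from RefSeq TAIR10.1, coding strand, with the 15 differing bases in capitals. It spans coding bases 113 to 202 of CASP2 and 107 to 196 of CASP4.
CASP2: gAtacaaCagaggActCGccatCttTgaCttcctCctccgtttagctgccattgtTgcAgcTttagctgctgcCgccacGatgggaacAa
CASP4: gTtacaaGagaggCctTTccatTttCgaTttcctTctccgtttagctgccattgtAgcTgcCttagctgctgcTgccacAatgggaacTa

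In response to ABA, 3 members fell in both genotypes: the scaffold genes CASP1 and CASP2, and the peroxidase gene PER64. CASP4 fell past the threshold in wild type. No member rose past the threshold in either genotype, and CASP5 was the member whose values lay higher with ABA. In total 3 of the 6 tested members fell in skip-1, where 12.1% of all tested features were called lower and 28.5% in either direction. In wild type 4 of the 6 fell, where 19.5% of features were lower and 43.1% called in either direction. None was called higher by edgeR or by DESeq2, and at an unadjusted p under 0.05 edgeR placed 1 member higher in skip-1, CASP5, and 0 in wild type. The median log2 fold change of the 6 tested members was −0.62 in skip-1 and −0.96 in wild type, beside −0.02 and −0.01 over all features. Without 1 library these counts moved: 1 member was called lower in skip-1 without its ABA replicate 2 and 2 without its mock replicate 2, and 3 were called lower in wild type without any 1 of its 4 libraries.

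CASP2 (AT3G11550, chr3:3638178-3639348, plus strand, 3 exons), a scaffold gene, had the most negative ABA effect of the members. It stood at 1.91 and 1.18 CPM in skip-1 with ABA and at 3.85 and 4.23 CPM in skip-1 mock. In wild type it stood at 0.940 and 1.1 CPM with ABA and at 7.15 and 5.51 CPM in mock. Within each genotype both ABA libraries lay below both mock libraries. The log2 fold change was −1.38 ± 0.28 in skip-1 (adjusted p = 0.00688) and −2.63 ± 0.29 in wild type (adjusted p = 0.000152). CASP2 passed the threshold in both genotypes under all alternatives tried, including each left-out library, with adjusted p up to 0.049 in skip-1 and up to 0.00273 in wild type.

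CASP1 (AT2G36100, chr2:15159591-15160799, minus strand, 3 exons), the scaffold gene with the highest level, had 10.3 and 9.40 CPM in skip-1 with ABA, against 16.3 and 16.8 CPM in skip-1 mock. The wild type libraries had 9.50 and 8.36 CPM with ABA, against 22.2 and 15.7 CPM in mock. The groups did not overlap in either genotype, and the mock replicates of wild type lay further apart than those of skip-1. The changes were −0.75 ± 0.18 in skip-1 (adjusted p = 0.0137) and −1.08 ± 0.18 in wild type (adjusted p = 0.00133). The skip-1 call was lost without skip-1 ABA replicate 2 (adjusted p = 0.0824) or skip-1 mock replicate 2 (0.052).

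CASP4 (AT5G06200, chr5:1877134-1878324, plus strand, 3 exons), the closest paralog of CASP2, had fewer reads, with 8 to 66 counts per library. It stood at 0.956 and 0.363 CPM in skip-1 with ABA and at 0.841 and 1.03 CPM in skip-1 mock, so these groups overlapped. In wild type it stood at 1.09 and 0.992 CPM with ABA, below both mock libraries at 2.74 and 2.03 CPM. The change was −0.50 ± 0.46 in skip-1 (adjusted p = 0.454) and −1.19 ± 0.40 in wild type (adjusted p = 0.0403). The wild type call was lost with DESeq2 (adjusted p = 0.0737) and without any 1 of the 4 wild type libraries (0.0621 to 0.178).

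CASP5 (AT5G15290, chr5:4967011-4968092, plus strand, 3 exons) moved apart from the other scaffold genes described. It had 1.41 and 1.23 CPM in skip-1 with ABA, against 0.321 and 0.752 CPM in skip-1 mock, and 2.08 and 2.25 CPM in wild type with ABA, against 1.58 and 0.932 CPM in wild type mock. All 4 ABA libraries were higher than the mock libraries of their own genotype. With 8 to 43 counts per library, the changes of 1.32 ± 0.45 in skip-1 (adjusted p = 0.0595) and 0.78 ± 0.39 in wild type (adjusted p = 0.137) missed the threshold. Without skip-1 mock replicate 2 the change in skip-1 was 2.05 (adjusted p = 0.0298) and passed.

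PER64 (AT5G42180, chr5:16852628-16854224, plus strand, 4 exons), the peroxidase gene, had 4.42 and 3.54 CPM in skip-1 with ABA and 8.53 and 6.77 CPM in skip-1 mock. Wild type had 5.79 and 5.17 CPM with ABA and 10.1 and 9.40 CPM in mock. The groups were separate in both genotypes, with changes of −0.94 ± 0.19 in skip-1 (adjusted p = 0.00739) and −0.83 ± 0.19 in wild type (adjusted p = 0.00718). Only skip-1 ABA replicate 2, when left out, ended the skip-1 call (adjusted p = 0.0568), and no alternative ended that in wild type.

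MYB36 (AT5G57620, chr5:23334767-23336632, plus strand, 3 exons), the activator of strip genes, did not pass the threshold in either genotype. It had 3.32 and 1.68 CPM in skip-1 with ABA against 2.88 and 3.06 CPM in skip-1 mock. It had 1.98 and 1.57 CPM in wild type with ABA against 3.32 and 1.86 CPM in wild type mock. Replicates lay furthest apart in skip-1 with ABA and in wild type mock, and the ABA and mock groups overlapped in both genotypes. The changes were −0.25 ± 0.37 in skip-1 (adjusted p = 0.66) and −0.54 ± 0.39 in wild type (adjusted p = 0.3).

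ESB1 (AT2G28670, chr2:12300265-12302358, minus strand, at most 2 exons), the dirigent gene, had 5 and 3 counts in skip-1 with ABA, 6 and 3 in skip-1 mock, 5 and 0 in wild type with ABA, and 3 and 7 in wild type mock. The group sums were 8 (95% Poisson interval 3.45 to 15.8), 9 (4.12 to 17.1), 5 (1.62 to 11.7) and 10 (4.80 to 18.4) counts in that order, and these intervals, which cover counting error only, overlap. In RefSeq TAIR10.1 another protein-coding gene, AT2G28671, lies on the opposite strand and covers 1772 of the 2094 bases of ESB1. The deposited table has a row for it with 6 counts over all 8 libraries, beside 32 for ESB1. The sources used here do not give how reads that touch both genes were counted, and the count of ESB1 is uncertain as a measure of its transcript. Other overlaps were short: 49 bases of CASP1, 34 of PER64 and 4 of CASP5.

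**Figure D2:**
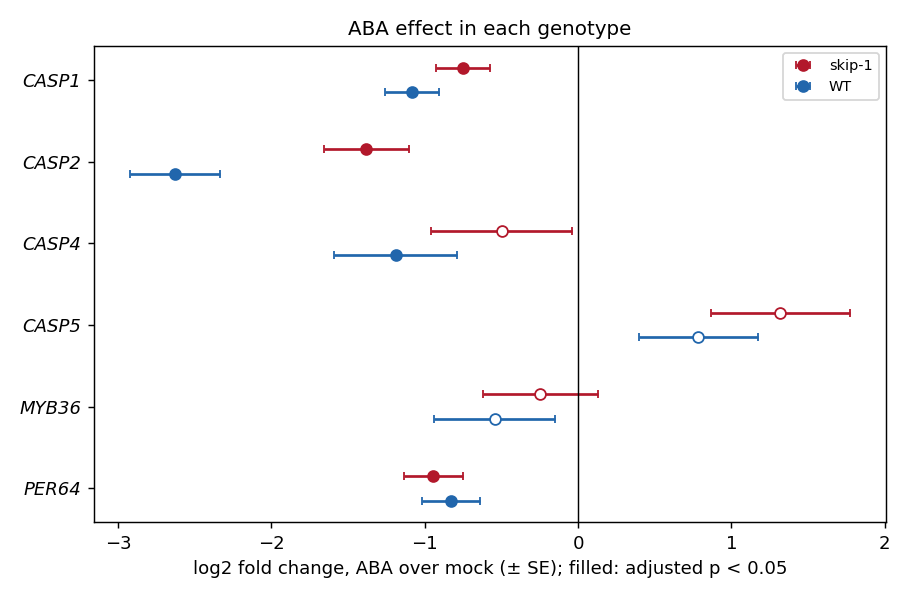
ABA effect on each tested Casparian strip gene as log2 fold change (x axis, ABA over mock, whiskers ± SE), with skip-1 in red above WT in blue; filled points have an adjusted p under 0.05. CASP2 in WT is furthest left at −2.63, and CASP5 is the member to the right of 0 in both genotypes.

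The make-up of the summed CASP transcripts was described next, on the FPKM scale. CASP1 held 68.4% and 75.9% of the summed FPKM of the 4 CASP genes in skip-1 with ABA, 74.8% and 71.8% in skip-1 mock, 67.3% and 63.4% in wild type with ABA, and 63.3% and 62.3% in wild type mock. CASP2 held 13.1% and 9.86% in skip-1 with ABA, 18.3% and 18.7% in skip-1 mock, 6.88% and 8.60% in wild type with ABA, and 21.1% and 22.6% in wild type mock. CASP5 held 9.59% and 10.1% in skip-1 with ABA, 1.51% and 3.28% in skip-1 mock, 15.05% and 17.4% in wild type with ABA, and 4.61% and 3.78% in wild type mock. The CASP2 share was thus lower, and the CASP5 share higher, in each ABA library than in the mock libraries of its genotype. The CASP4 share was 4.12% to 8.92% in the skip-1 libraries and 10.6% to 11.3% in those of wild type. The lengths behind these shares differ in kind. That of CASP4, 609 bases, is its coding length alone, and that of CASP1, 855 bases, is longer than its coding length. How this moved the CASP4 share beside the others was not tested. Shares of a fixed sum move together, and no test was made on them.

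**Figure D3:**
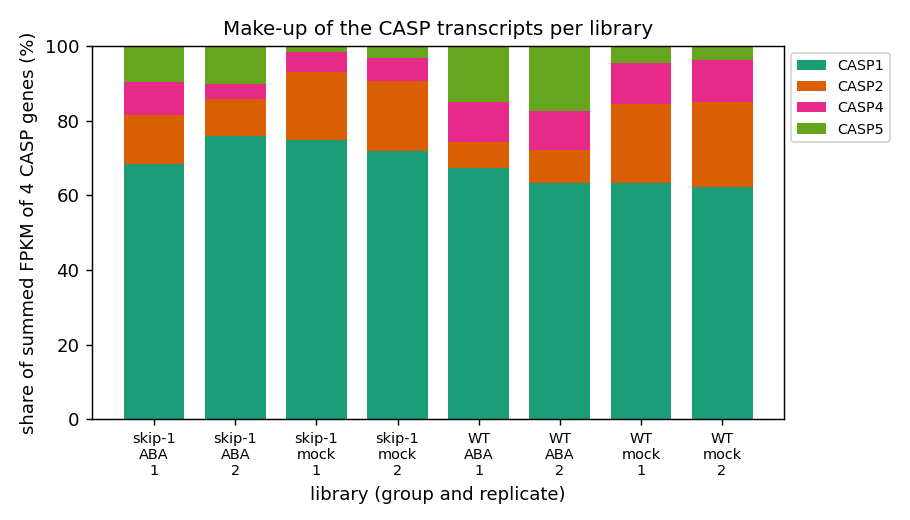
Share of each gene in the summed FPKM of CASP1, CASP2, CASP4 and CASP5 (y axis, percent) in each of the 8 libraries, ordered as skip-1 ABA, skip-1 mock, WT ABA and WT mock. CASP1 holds 62.3% to 75.9%, and the CASP5 share is 9.59% to 17.4% in the ABA libraries and 1.51% to 4.61% in the mock libraries.

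Skip-1 was next compared with wild type. Without ABA, 1 of the 6 tested members, CASP4, was lower in skip-1. Of all tested features, 10% were called lower and 20.5% in either direction. No member was higher by edgeR, DESeq2 or edgeR's unadjusted p under 0.05 (0 members each). CASP4 had 0.938 ± 0.137 CPM in skip-1 mock and 2.38 ± 0.507 CPM in wild type mock (SD, n = 2 each), a change of −1.35 ± 0.40 (adjusted p = 0.0454). This call was lost with DESeq2 (adjusted p = 0.0709) and without any 1 library of the wild type or of skip-1 mock (0.0649 to 0.187). CASP5 (−1.25 ± 0.45, adjusted p = 0.0838) and CASP2 (−0.65 ± 0.25, adjusted p = 0.0966) missed the threshold, although both had an unadjusted p under 0.05. CASP5 passed without skip-1 mock replicate 2 (−1.93, adjusted p = 0.0443). CASP1 (−0.20 ± 0.17), PER64 (−0.35 ± 0.18) and MYB36 (0.20 ± 0.37) gave smaller values, with adjusted p from 0.21 to 0.742.

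With ABA in both genotypes, edgeR called none of the 6 tested members different between skip-1 and wild type, where 31% of all tested features were called in either direction. DESeq2 also called none, and at an unadjusted p under 0.05 edgeR gave 1, PER64, lower in skip-1 (−0.46 ± 0.20, adjusted p = 0.108). CASP2 stood at 0.60 ± 0.32 (adjusted p = 0.19), with skip-1 at 1.55 ± 0.517 CPM and wild type at 1.02 ± 0.111 CPM. CASP5 stood at −0.71 ± 0.39 and CASP4 at −0.65 ± 0.46.

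Whether the ABA effect itself differed between genotypes was tested as an interaction, the effect in skip-1 minus that in wild type. No member passed with edgeR or DESeq2, where edgeR called 3.07% of all features, 0.8% with a higher and 2.27% with a lower value. CASP2 had the largest difference, 1.25 ± 0.41, and was the only member with an unadjusted p under 0.05 (adjusted p = 0.14, and 0.101 to 0.381 over the alternatives). The differences of the other members lay between −0.12 ± 0.27 for PER64 and 0.69 ± 0.62 for CASP4. The smaller ABA effect on CASP2 and CASP4 in skip-1 is therefore not shown to differ from that in wild type.

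**Figure D4:**
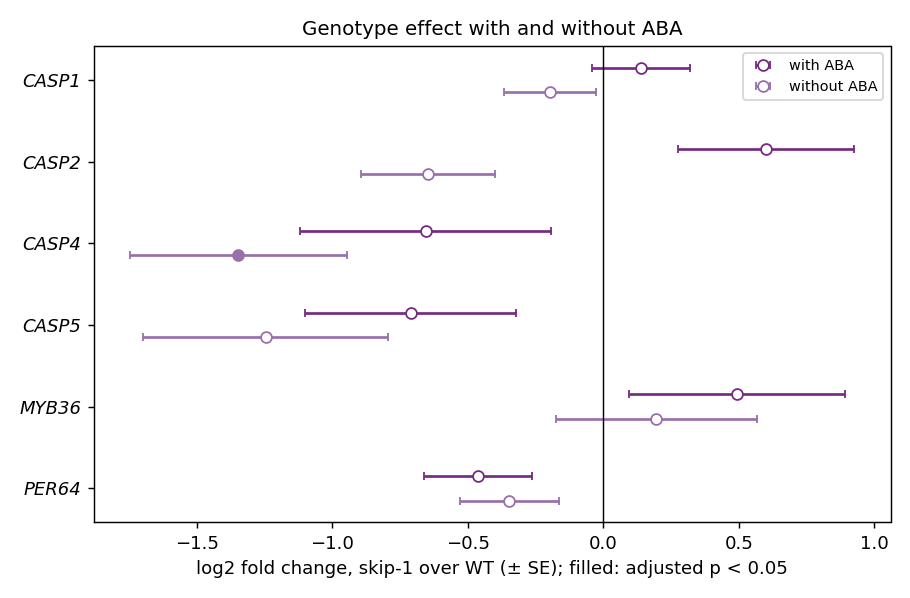
Genotype effect on each tested Casparian strip gene as log2 fold change (x axis, skip-1 over WT, whiskers ± SE), with ABA above and without ABA below; the filled point has an adjusted p under 0.05. CASP4 without ABA, at −1.35, is the filled point, and CASP2 lies left of 0 without ABA and right of 0 with it.

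The promoters of 4 members are shown as examples. CASP1 fell, CASP4 was called in wild type, CASP5 lay higher with ABA, and ESB1 was near the detection limit and untested. That of CASP2, with the most negative ABA effect, is not shown. Differences in response between these genes were not tested. Each window is the 250 bases before the annotated gene start in RefSeq TAIR10.1, 5′ to 3′ on the gene's strand. Capitals mark the MYB core, CNGTTA or CNGTTG, and the core of the ABA-responsive element bound by ABA factors, ACGTG, on both strands.
CASP1 (chr2:15160800-15161049, minus strand): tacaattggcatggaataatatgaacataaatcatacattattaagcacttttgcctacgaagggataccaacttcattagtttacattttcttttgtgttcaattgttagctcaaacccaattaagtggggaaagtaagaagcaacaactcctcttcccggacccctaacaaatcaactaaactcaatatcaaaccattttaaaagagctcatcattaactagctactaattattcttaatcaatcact
CASP4 (chr5:1876884-1877133, plus strand): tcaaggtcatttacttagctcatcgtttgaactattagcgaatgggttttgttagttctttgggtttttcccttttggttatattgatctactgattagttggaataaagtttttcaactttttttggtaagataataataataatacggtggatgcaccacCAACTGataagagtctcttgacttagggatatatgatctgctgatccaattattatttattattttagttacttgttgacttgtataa
CASP5 (chr5:4966761-4967010, plus strand): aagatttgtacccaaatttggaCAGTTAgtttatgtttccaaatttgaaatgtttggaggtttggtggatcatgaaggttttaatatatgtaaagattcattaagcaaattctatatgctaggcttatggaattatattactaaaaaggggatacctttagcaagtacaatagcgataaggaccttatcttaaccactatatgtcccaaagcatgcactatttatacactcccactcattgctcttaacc
ESB1 (chr2:12302359-12302608, minus strand): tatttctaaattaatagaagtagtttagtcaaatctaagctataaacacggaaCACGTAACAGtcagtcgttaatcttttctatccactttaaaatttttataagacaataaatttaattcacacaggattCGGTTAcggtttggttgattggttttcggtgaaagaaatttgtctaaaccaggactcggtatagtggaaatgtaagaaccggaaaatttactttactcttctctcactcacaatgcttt
A MYB core was found in 4 of the 7 members' windows, those of CASP4, CASP5, MYB36 and ESB1, and in 40.7% of 27443 windows of protein-coding nuclear genes. ACGTG was found in 1 of 7, that of ESB1, where it overlaps a MYB core by 1 base, and in 22.9% of all windows. The AC element of lignin genes, ACCNACC, was in none of the 7 and in 6.1% of all windows. A match is a run of letters and not a shown binding site.

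The rest of the strip pathway was read from lists written from general knowledge. In the list of strip assembly and polymerisation, 6 of 15 genes fell and 1 rose in skip-1 with ABA, and 7 fell and 3 rose in wild type, with medians of −0.39 and −0.26. The shares among all features were 12.1% lower and 16.3% higher in skip-1, and 19.5% lower and 23.7% higher in wild type. The peroxidase locus AT4G11290 changed by −2.25 ± 0.27 on the log2 scale in skip-1 and −2.87 ± 0.27 in wild type, and the peroxidase locus AT1G44970 by −1.37 ± 0.26 in skip-1 and −1.63 ± 0.29 in wild type. The laccase gene LAC5, of a family that oxidises lignin monomers, rose by 1.80 ± 0.19 in skip-1 and by 2.77 ± 0.20 in wild type. LAC13 rose by 1.48 ± 0.21 in wild type and stood at −0.14 in skip-1. The 4 dirigent loci of the list, AT2G39430, AT3G24020, AT4G13580 and AT3G55230, fell in both genotypes, with changes of −0.79 to −1.12 in skip-1 and −0.82 to −1.49 in wild type. They were singled out after their values were seen, and the first 3 overlap annotated genes on the opposite strand.

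Signalling and identity genes of the endodermis moved in both directions. Among all tested features, 12.1% fell and 16.3% rose in skip-1, and 19.5% fell and 23.7% rose in wild type. Of 7 genes of the signalling that checks the strip for gaps, 3 fell and 1 rose in each genotype. The riser in both was RBOHF, an NADPH oxidase gene that supplies oxidant for lignin, at 58.8 ± 5.90 CPM in skip-1 with ABA against 22.6 ± 3.13 CPM in skip-1 mock, and 50.3 ± 0.412 CPM in wild type with ABA against 14.5 ± 0.608 CPM in wild type mock. The receptor kinase gene GSO2 fell by −1.73 ± 0.40 in skip-1 and −1.38 ± 0.44 in wild type. GSO1, the receptor gene of the strip, was named after its values were seen. It changed by −0.67 in skip-1 and −0.37 in wild type, the second of these short of the threshold. The protein kinase locus AT1G61590 changed by −1.14 ± 0.28 in skip-1 and −1.65 ± 0.30 in wild type. Of 7 endodermis identity factors, 3 fell and 2 rose in skip-1, and 4 fell and 1 rose in wild type. SHR, which moves into the endodermis from the stele, changed by −1.09 ± 0.15 in skip-1 and −0.92 ± 0.16 in wild type, and JKD by −1.72 ± 0.32 in skip-1 and −2.22 ± 0.31 in wild type. SCL3 rose, by 1.53 ± 0.14 in skip-1 and 1.05 ± 0.14 in wild type. Of 5 relatives of MYB36, 4 were tested, of which 3 rose in each genotype and none fell, with MYB68 at 1.02 ± 0.19 in skip-1 and 0.95 ± 0.19 in wild type and MYB84 at 1.22 ± 0.29 in skip-1 and 1.02 ± 0.32 in wild type. The untested relative, MYB87, had 7 and 14 counts in skip-1 with ABA, 9 and 2 in skip-1 mock, 0 and 0 in wild type with ABA, and 5 and 3 in wild type mock.

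Most suberin and lignin monomer genes rose with ABA. Beside them, 16.3% of all tested features rose and 12.1% fell in skip-1, and 23.7% rose and 19.5% fell in wild type. Of 18 tested genes for suberin synthesis and regulation, 13 rose and 1 fell in each genotype, with medians of 1.09 in skip-1 and 1.60 in wild type. The fatty acid elongase gene KCS2 rose by 4.2 ± 0.11 in skip-1 and 5.49 ± 0.11 in wild type, although an annotated noncoding gene overlaps it on the other strand. The acyltransferase gene GPAT7 (3.20 ± 0.17 in skip-1 and 4.34 ± 0.19 in wild type) and the transporter gene ABCG6 (2.51 ± 0.11 in skip-1 and 3.05 ± 0.11 in wild type) rose as well. MYB41, an activator of suberin genes chosen after its values were seen, stood at 8.83 ± 2.65 CPM in skip-1 with ABA against 0.318 ± 0.117 CPM in skip-1 mock, and at 14.2 ± 0.715 CPM in wild type with ABA against 0.349 ± 0.0933 CPM in wild type mock. Of 16 lignin monomer genes, 11 rose and 1 fell in skip-1, and 12 rose and 1 fell in wild type. CAD5, for the last reduction to the monomer, rose by 2.44 ± 0.16 in skip-1 and by 3.68 ± 0.17 in wild type, and PAL3, for the first step of the pathway, was the gene that fell in both.

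**Figure D5:**
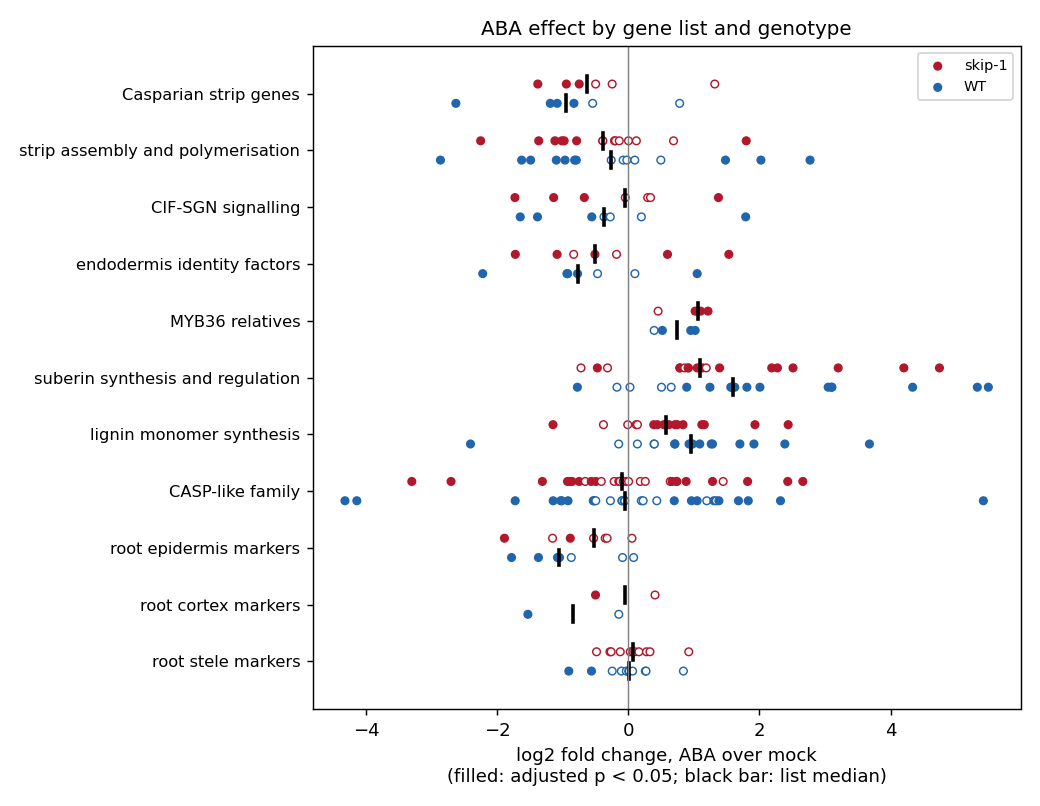
ABA effect as log2 fold change (x axis, ABA over mock) of each tested gene by list, with skip-1 in red above WT in blue; filled points have an adjusted p under 0.05 and the black bar is the list's median. The Casparian strip genes have medians of −0.62 in skip-1 and −0.96 in WT, and the suberin genes have medians of 1.09 and 1.60.

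The CASP-like family, 35 genes that the annotation names as relatives of the CASP proteins, had no common direction. Of 30 tested, 8 rose and 9 fell in skip-1, and 9 rose and 8 fell in wild type, with medians of −0.10 and −0.06. Over all tested features 16.3% rose and 12.1% fell with ABA in skip-1, and 23.7% rose and 19.5% fell in wild type. CASPL1C1 rose by 2.66 ± 0.28 in skip-1 and 5.42 ± 0.34 in wild type, and CASPL2B2 by 1.29 ± 0.16 in skip-1 and 1.31 ± 0.16 in wild type. CASPL2A1 changed by −0.89 ± 0.12 in skip-1 and −1.01 ± 0.12 in wild type. Between genotypes the family leaned lower: without ABA 3 genes were higher and 7 lower in skip-1, and with ABA 1 was higher and 10 were lower, among them CASPL1B2 at −1.46 ± 0.19 without ABA and −1.87 ± 0.20 with it. Without ABA 10.4% of all features were higher and 10% lower in skip-1, and with ABA 13.6% and 17.4%.

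Genes listed as markers of other root layers and of the leaf were read beside these results. Seedlings and not separate organs were sequenced, so the organ in which each was expressed was not measured. Their sums are therefore not levels of a root layer. Of 7 root epidermis markers, 2 fell in skip-1 with ABA and 4 in wild type, and none rose. Their summed level was 29.4 to 35.5 CPM in skip-1 with ABA and 47.2 to 67.8 CPM in skip-1 mock. In wild type it was 14.6 to 15.4 CPM with ABA and 28.8 to 29.6 CPM in mock. This sum, mostly GL2 and PRP3, was thus lower with ABA in each genotype, as were CASP1, CASP2 and PER64. In wild type EXPA7 (−0.09 ± 0.37) and RHD6 (0.08 ± 0.53) were among the epidermis markers not called with ABA. Of 2 cortex loci, AT1G09750 fell in both genotypes (−0.50 ± 0.13 in skip-1 and −1.53 ± 0.13 in wild type). The other, AT1G62500, was not called with ABA (0.41 ± 0.25 in skip-1 and −0.14 ± 0.23 in wild type). The pair, mostly AT1G09750, summed to 109 to 116, 140 to 165, 104 to 127 and 271 to 280 CPM in the same order of groups. AT1G62500 was lower in skip-1 than in wild type without ABA (−2.23 ± 0.25) and with it (−1.68 ± 0.24). AT1G09750 was lower in skip-1 without ABA (−0.73 ± 0.13). Of 11 stele markers none was called in skip-1 with ABA by edgeR, and 2 fell in wild type, PHO1 (−0.91 ± 0.22) and AHK4 (−0.56 ± 0.14). The stele sum lay between 348 and 411 CPM in all libraries, with SUC2 alone at group means of 139 to 171 CPM. Of 3 root cap markers, with sums of 0.729 to 1.91 CPM, 2 were tested and neither was called. Of 5 leaf mesophyll markers, 1 fell with ABA in skip-1 and 2 in wild type. Of the same 5, 4 were higher in skip-1 than in wild type both with and without ABA. Of the root epidermis markers 2 were higher in skip-1 without ABA and 2 with it, of the stele markers 3 and 5, and none was lower. Over all tested features, 12.1% fell with ABA in skip-1 and 19.5% in wild type. In skip-1 against wild type 10.4% were higher without ABA and 13.6% with it, and 10% and 17.4% were lower. The leaf sum was 16738 to 17919 CPM in skip-1 with ABA, 22891 to 25787 in skip-1 mock, 10573 to 12721 in wild type with ABA and 13397 to 15458 in wild type mock. No marker was at 0 in all libraries. The part of other cell types in the changes of the strip genes was not tested.

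Likeness to the members was measured as Pearson's r over the 8 libraries between a gene's log2 CPM and the mean standardised log2 CPM of the 6 tested members. The libraries fall into 4 groups, so these values are a description. Among the members, CASP4 was most like the mean of the others (r = 0.836), followed by CASP1 (0.82), CASP2 (0.805) and PER64 (0.786). MYB36 (0.456) was less like it and CASP5 ran against it (−0.392). Other genes were searched among the tested ones whose mean log2 CPM was not negative, against the mean of all 6 members. Their r is not on the scale of the members' values above, which leave the member itself out. The closest were AT5G53070 (r = 0.997), AT3G13780 (0.963), AT1G74320 (0.958), OPR1 (0.955), AT3G50300 (0.954) and SOBER1 (0.951). Of these 6, AT3G50300 (−1.40), OPR1 (−0.71), AT3G13780 (−0.71) and SOBER1 (−0.53) fell in wild type with ABA, and OPR1 also in skip-1 (−0.62). The closest, AT5G53070, was not called with ABA in either genotype (−0.18 in skip-1 and −0.33 in wild type). Nor was AT1G74320 (−0.23 in skip-1 and −0.35 in wild type).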

How the data were processed

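Messenger RNA of seedlings was sequenced in 8 libraries. RNA was isolated with RNAiso Plus and libraries were made with an NEBNext Ultra kit, per the labels' protocols. The authors deposited raw read counts per gene and FPKM for all 8 libraries. Per the submitters' processing notes, Bowtie2 2.2.3, TopHat2 2.0.12 and HTSeq 0.6.1 were used on TAIR10; the sources used here do not give their roles, options, strand setting or annotation release. Each FPKM deposited by the authors was checked against the counts. It is the count over the library total and a length that is the same for a gene in all libraries. For each member that length was shorter than the gene's span in RefSeq, such as 855 against 1209 bases for CASP1.

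Differential expression was tested on the counts with edgeR 4.0.16 in R 4.3.3 (robust quasi-likelihood F tests, TMM, filter by expression within groups, 1 coefficient per group, no block), which tested 21008 of 33674 features with 4 residual degrees of freedom. The approximate SE is the size of the log2 fold change over the root of its F value. Log2 CPM used a prior count of 2. Depth was 20870110 to 23640113 counts per library, and intervals cover counting error only. The procedure was tested on simulated data. Alternatives were other scalings, no filter, DESeq2 1.42.0, the replicate number as a block, fits of 2 groups and each library left out. Named list genes were up to 3 per list and comparison with the smallest adjusted p; others are marked. Sequences, names and positions came from RefSeq TAIR10.1, whose assembly differs in version from the TAIR10 the submitters name; it matched 32835 features. From the list of strip signalling, 1 locus was dropped because its annotated product contradicted the listed name. The members and lists were chosen with earlier results of these data known, and lists were given no set test. Of 8 genes that the rule finds, 1 is not reported here and enters no count, share or mean over the members.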

Additional observations from a re-analysis of the deposited data

Results flagged for a closer look

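No Casparian strip gene had an ABA effect that differed between genotypes in the interaction test. Among the other genes named from the lists, 7 did, where 3.07% of all tested features were called. They were named for the smallest adjusted p of this same test in their list, so the test itself picked them. By list they were 1 of 30 tested CASP-like genes, 1 of 18 suberin, 1 of 15 strip assembly and 1 of 2 cortex genes. Of 16 lignin monomer genes, 1 was called higher and 2 lower. Values are the effect in skip-1 minus that in wild type on the log2 scale, with edgeR's adjusted p. The CASP-like gene CASPL1C1 gave −2.75 (adjusted p = 0.0225), from 11.4 ± 3.46 CPM in skip-1 with ABA and 1.79 ± 0.532 in skip-1 mock, and 16.0 ± 1.08 in wild type with ABA and 0.370 ± 0.0646 in wild type mock (SD, n = 2 each). The laccase gene LAC13 gave −1.62 (adjusted p = 0.0345), the suberin gene KCS2 −1.29 (0.00681), and the lignin monomer genes CAD5 −1.24 (0.0252) and OMT1 −0.795 (0.0461). PAL3, of the first step towards lignin monomers, gave 1.26 (0.0297), and the cortex locus AT1G09750 gave 1.03 (0.0276). KCS2 kept its call under every alternative run (adjusted p up to 0.0391). The other 6 kept their direction but lost the call without some libraries: of 8 libraries left out in turn, CASPL1C1 lost it in 4 (adjusted p up to 0.0974), CAD5 in 5 (0.105), AT1G09750 in 5 (0.0871), PAL3 in 6 (0.0976), LAC13 in 7 (0.116) and OMT1 in all 8 (0.168). With scaling by library size alone LAC13 (adjusted p = 0.0571) and OMT1 (0.0826) also lost it.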

How the results depend on the processing

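The number of members called was recomputed with other scalings, no filter, DESeq2, a replicate block, only the groups compared, and each library left out, and no member changed direction where it had been called. With DESeq2 0 members were lower in skip-1 than in wild type without ABA, against 1 with edgeR. Over the left-out libraries, the members called lower with ABA numbered 1 to 3 in skip-1 and 3 to 4 in wild type, those called higher with ABA in skip-1 0 to 1, and those lower in skip-1 mock than in wild type mock 0 to 1. A left-out library leaves 1 sample in its group, which is assumed to vary like the other groups. With the replicate number as a block, 3 members were lower with ABA in skip-1, 4 in wild type, and 1 was lower in skip-1 mock than in wild type mock, so the block changed none of these counts. Deviations of same-numbered libraries correlated at 0.111 to 0.258, and with 2 libraries per group the numbers cannot be shown to pair. Scaling by library size alone moved the median of all features with ABA in wild type to −0.22 (−0.01 with TMM), with 3743 features higher and 6658 lower in place of 4974 and 4087. It moved the median of skip-1 against wild type with ABA to 0.12, with 4180 higher and 2493 lower in place of 2855 and 3649, and the interaction median to 0.15, with 297 higher and 238 lower in place of 168 and 476. The counts of members called were unchanged under that scaling. Of 111 called results among the list genes named by the rule, 42 lost the call without at least 1 library and 21 under at least 1 other setting, and none changed direction past the threshold. Low counts limit ESB1, CASP4 and CASP5, each of which had a library with fewer than 10 counts. The count of ESB1 is also uncertain because AT2G28671 overlaps it.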
